A study of Mus musculus with 12 samples.

Results

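Procollagen export and propeptide cleavage was followed here through 10 genes of the 47069 in the count matrix, each found by its gene symbol: *Mia3*, *Creb3l1* and *Sec24d*, which serve the secretory pathway of collagen-producing cells, the C-propeptide proteases *Bmp1* and *Tll1* with their enhancers *Pcolce* and *Pcolce2*, and the N-propeptide proteases *Adamts2*, *Adamts3* and *Adamts14*. All 10 had enough counts to be tested in each comparison. Fibrillar collagens are made as procollagens, long rigid trimers that leave the endoplasmic reticulum in COPII-coated carriers enlarged with the help of the receptor TANGO1. Outside the cell, proteases cut propeptides off both ends, a part of the path by which the trimer comes to assemble into fibrils. Osteoblasts secrete large amounts of type I collagen, and loss of *BMP1*, *CREB3L1* or *SEC24D* is known to cause brittle bones in people.

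Tibial diaphyses of 8-week-old males, flushed of marrow, gave 1 RNA library per mouse and n = 4 mice per group. Jrt;Sost-het mice carried 1 copy of Jrt, a splice site variant of *Col1a1* that causes exon skipping and serves as a model of dominant osteogenesis imperfecta, and, by the methods of the study and not by the labels, 1 intact *Sost* allele. Jrt;Sost-ko mice carried the same *Col1a1* genotype and no intact *Sost*, the gene of the osteocyte-derived Wnt inhibitor sclerostin, and their combination of alleles went back to a mouse in which *Col1a1* and *Sost* had recombined. WT mice had neither allele and came from a separate colony of the same mixed FVB and C57BL6 background, so that colony and genotype cannot be told apart in either comparison with WT. The mice of a group are called 1 to 4, and a shared number pairs no mice across groups. The first question was whether *Sost* loss moved these genes in mice with the *Col1a1* variant. The contrast that addresses it, Jrt;Sost-ko minus Jrt;Sost-het, is called the *Sost* contrast. The comparisons with WT, which share the 4 WT mice, are given beside it.

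Counts on genes ranged from 24366061 to 44418863 per library, and no pair of libraries of the same group agreed within sampling noise. Values per mouse are CPM (the count over the TMM-scaled library size, times 1000000), and differences between groups are log2 fold changes with their standard error from edgeR's quasi-likelihood test, adjusted by Benjamini–Hochberg over all genes tested. *Sost* had 0.571, 1.28, 0.508 and 0.326 CPM in Jrt;Sost-ko mice against 28.0, 34.6, 70.4 and 26.8 CPM in Jrt;Sost-het mice, as the labels have it. The log2 difference was -5.87 ± 0.486 (edgeR adjusted p = 0.0130). All 7 osteoblast and 6 osteocyte markers were detected in these shafts. So were markers of other cells. Summed CPM ranged over the 12 mice from 33.7 to 34751 for 16 skeletal muscle genes, from 84.6 to 3649 for 8 chondrocyte genes and from 9.16 to 648 for 8 epidermis genes, of which all values above 20.1 belonged to WT 3 and WT 4. In such bulk RNA, fewer cells of a type and less RNA per cell cannot be told apart.

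Promoters of 8 of the 10 members were matched by symbol in RefSeq (GRCm38.p6), as 250 bases before and 50 bases after the start site. *Bmp1* and *Creb3l1* had no entry. Shown are the 3 that hold TGACGTG, the core of the unfolded protein response element to which transcription factors of the ER stress response bind, and *Pcolce2*, the member whose Jrt;Sost-ko and Jrt;Sost-het values did not overlap. Capitals mark TGACGTG, and each sequence runs 5′ to 3′ on the strand of its gene.
Mia3 (chr1:183369516-183369815, minus strand): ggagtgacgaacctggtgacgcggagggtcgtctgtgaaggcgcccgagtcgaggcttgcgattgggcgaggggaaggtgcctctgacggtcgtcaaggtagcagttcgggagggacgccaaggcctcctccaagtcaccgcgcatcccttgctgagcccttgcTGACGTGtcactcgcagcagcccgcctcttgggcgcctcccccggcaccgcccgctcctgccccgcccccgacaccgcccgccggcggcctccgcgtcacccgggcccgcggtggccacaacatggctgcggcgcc
Sec24d (chr3:123267246-123267545, plus strand): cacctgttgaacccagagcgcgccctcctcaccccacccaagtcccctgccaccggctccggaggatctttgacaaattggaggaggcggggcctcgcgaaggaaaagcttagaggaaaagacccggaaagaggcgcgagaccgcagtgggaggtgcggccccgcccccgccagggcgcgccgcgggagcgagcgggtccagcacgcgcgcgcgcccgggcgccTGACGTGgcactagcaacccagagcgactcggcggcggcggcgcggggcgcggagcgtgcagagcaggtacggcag
Adamts3 (chr5:89883285-89883584, minus strand): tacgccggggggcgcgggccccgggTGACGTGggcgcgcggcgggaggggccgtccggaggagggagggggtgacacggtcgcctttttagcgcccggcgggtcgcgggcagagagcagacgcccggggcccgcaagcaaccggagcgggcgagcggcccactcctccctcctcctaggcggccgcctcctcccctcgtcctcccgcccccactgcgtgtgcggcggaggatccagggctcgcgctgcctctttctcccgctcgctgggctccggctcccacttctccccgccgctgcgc
Pcolce2 (chr9:95637378-95637677, plus strand): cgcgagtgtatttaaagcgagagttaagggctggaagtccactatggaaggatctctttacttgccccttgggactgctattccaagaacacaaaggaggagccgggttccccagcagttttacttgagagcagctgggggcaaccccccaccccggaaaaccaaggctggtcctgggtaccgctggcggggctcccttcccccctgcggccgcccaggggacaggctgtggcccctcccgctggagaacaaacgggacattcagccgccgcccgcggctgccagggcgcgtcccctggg

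The first base of TGACGTG stood at −86 from the start site in *Mia3*, −26 in *Sec24d* and −225 in *Adamts3*, and 2.01% of 32851 promoters of this length hold it on either strand. CCACG, a part of the ER stress response element, held by 32.8% of promoters, was found in 4 of the 8 (*Sec24d*, *Adamts3*, *Adamts14* and *Pcolce*), overlapping TGACGTG on the opposite strand in *Sec24d* and *Adamts3*. CCAAT, held by 37.4%, was found in *Mia3*, *Sec24d* and *Tll1*. The letters TGACGTCA (a cAMP response element, 1.79% of promoters), TGTGGT (a RUNX site, 16.8%), CTTTGAT (a TCF site, 3.73%) and TATAAA (13.6%) were in 0 of the 8 windows on either strand. The genes that share TGACGTG did not share a level, since *Adamts3* had at most 1.17 CPM per kb of coding-transcript exons in the 12 mice, *Sec24d* at least 10.7 and *Mia3* at least 23.4.

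In the *Sost* contrast 9 of the 10 genes had overlapping groups, and *Pcolce2* was lower in each of the 4 Jrt;Sost-ko mice than in any Jrt;Sost-het mouse. edgeR called 0 of the 10 members, against 1 of all 16739 genes tested (*Sost*, 0.00597%). At an unadjusted p under 0.05 it gave 1 member (*Pcolce2*), against 5.02% of all genes. The groups did not overlap in that same member, against 3.2% of all genes. A single member of 10 is too few to set against either share. DESeq2 called 0 members as well, against 15 of all genes, and gave *Tll1* no adjusted p. At an unadjusted p under 0.05 it gave 1 member (*Pcolce2*), against 5.41% of all genes. On the log2 scale 8 members were higher and 2 (*Pcolce2* and *Tll1*) lower in Jrt;Sost-ko, where 50.4% of all genes were higher. The members' median was 0.16, against 0.00 over all genes. The median of the members was 0.068 without Jrt;Sost-het 3, 0.084 without Jrt;Sost-ko 3, 0.25 without Jrt;Sost-het 1 and 0.25 without Jrt;Sost-ko 4.

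Against WT, most of the 10 genes had higher means in both Jrt groups, and none passed the test. In Jrt;Sost-het mice 10 of 10 members were higher than in WT (median 0.18, all genes 0.00), beside 51.3% of all genes. In Jrt;Sost-ko mice it was 9 of 10 (median 0.36, all genes 0.00), beside 49.1% of all genes. The members varied together between mice (median r of 0.85 over their 45 pairs, centred on group means), so these counts are not of separate observations. edgeR called 0 members in either comparison, where it called 0.0% and 0.00583% of all genes (0 and 1 of them), and it gave 0 members at an unadjusted p under 0.05, where it gave 2.14% and 3.89% of all genes. DESeq2 gave 0 members at an unadjusted p under 0.05 for Jrt;Sost-het and 3 for Jrt;Sost-ko, beside 2.4% and 4.62% of all genes, and called none of them after adjustment. The groups overlapped in every member, while they did not in 1.54% and 2.4% of all genes. The SD between single mice of the members' median log2 CPM, pooled over groups, was 0.36, the size of the higher of these medians. That SD is not the standard error of a difference between groups of 4 mice, which was not computed for the median.

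**Figure D1:**
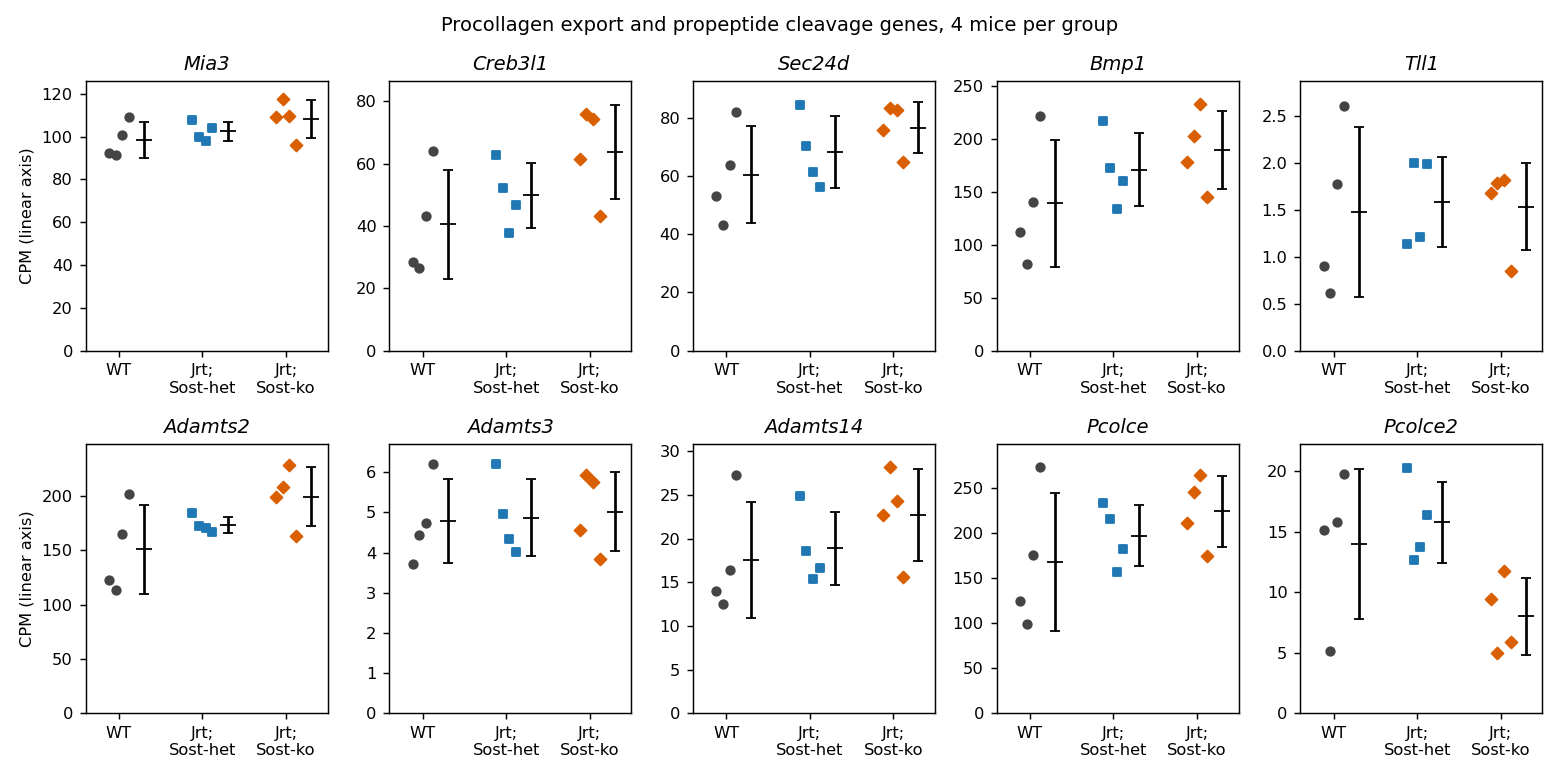
CPM of the 10 genes in each mouse (points, linear axes from 0) by group, with the mean and SD of 4 mice beside them in black. *Pcolce2* is the gene whose Jrt;Sost-ko points (5.00 to 11.8 CPM) all lie under the Jrt;Sost-het points (12.7 to 20.3 CPM), while the points of the other 9 genes overlap.

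TANGO1, the receptor that loads procollagen into COPII carriers, is encoded by *Mia3* (ENSMUSG00000056050, chromosome 1 from 183326725 to 183369553, minus strand, GRCm38 as for all positions). *Mia3* had 92.4, 91.5, 101 and 109 CPM in the WT mice, 108, 99.8, 98.1 and 104 CPM in the Jrt;Sost-het mice and 109, 117, 109.7 and 95.9 CPM in the Jrt;Sost-ko mice. It was the steadiest of the 10 genes, and the coefficient of variation over all 12 mice was 7.65%. Means were 98.5 ± 8.30, 102 ± 4.23 and 108 ± 8.90 CPM (SD, n = 4) in WT, Jrt;Sost-het and Jrt;Sost-ko. The *Sost* contrast was 0.08 ± 0.0706 (95% confidence interval -0.08 to 0.24, edgeR adjusted p = 0.904). As a linear fold that interval runs from 0.945-fold to 1.18-fold, the narrowest among the members.

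*Sec24d* (ENSMUSG00000039234, chromosome 3 from 123267455 to 123365641, plus strand) encodes a cargo-binding subunit of the COPII coat. *Sec24d* had 53.1, 43.0, 63.7 and 81.8 CPM in the WT mice, 84.3, 70.3, 61.4 and 56.1 CPM in the Jrt;Sost-het mice and 75.7, 83.1, 82.7 and 64.6 CPM in the Jrt;Sost-ko mice. The groups overlapped, with WT 2 the lowest of the 12 mice. The *Sost* contrast was 0.17 ± 0.132 (-0.13 to 0.47), and Jrt;Sost-ko differed from WT by 0.35 ± 0.190.

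*Creb3l1* (ENSMUSG00000027230, chromosome 2 from 91982328 to 92024502, minus strand) encodes OASIS, a membrane-bound transcription factor that is released by cleavage and acts on *Col1a1* and secretory genes in osteoblasts. *Creb3l1* had 28.4, 26.4, 43.1 and 64.0 CPM in the WT mice, 62.9, 52.2, 37.8 and 46.6 CPM in the Jrt;Sost-het mice and 61.4, 75.8, 74.4 and 43.2 CPM in the Jrt;Sost-ko mice. Jrt;Sost-ko 2 and 3 were above every Jrt;Sost-het and WT mouse, and Jrt;Sost-ko 4 lay within both of those groups. Of the 10 members it had the highest value in the *Sost* contrast (0.35 ± 0.201, edgeR adjusted p = 0.901) and in Jrt;Sost-ko against WT (0.66 ± 0.305, edgeR adjusted p = 0.9996). In Jrt;Sost-het against WT the difference was 0.30 ± 0.292. All 3 confidence intervals include 0, and that of Jrt;Sost-ko against WT was -0.04 to 1.36.

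*Bmp1* (ENSMUSG00000022098, chromosome 14 from 70474558 to 70520234, minus strand) encodes the main procollagen C-proteinase, and its short and long splice forms are joined in 1 gene count. *Bmp1* had 112, 82.1, 140.4 and 222 CPM in the WT mice, 217, 172, 134 and 160.3 CPM in the Jrt;Sost-het mice and 178, 202, 233 and 145 CPM in the Jrt;Sost-ko mice. The highest WT mouse stood above every Jrt;Sost-het mouse, so that the groups overlapped over most of their range. The *Sost* contrast was 0.15 ± 0.173 (-0.24 to 0.54), and against WT the difference was 0.30 ± 0.292 for Jrt;Sost-het and 0.45 ± 0.292 for Jrt;Sost-ko.

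Its paralogue *Tll1* (ENSMUSG00000053626, chromosome 8 from 64014931 to 64206271, minus strand) was counted at low depth, with 18 to 94 counts per library. *Tll1* had 0.898, 0.615, 1.78 and 2.6 CPM in the WT mice, 1.13, 2.0, 1.20 and 1.99 CPM in the Jrt;Sost-het mice and 1.68, 1.78, 1.82 and 0.848 CPM in the Jrt;Sost-ko mice. Jrt;Sost-ko 4 stood well below the other Jrt;Sost-ko mice. The *Sost* contrast was -0.04 ± 0.308, and its interval (-0.74 to 0.65) is too wide to tell a fall from a rise at this depth.

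The procollagen C-proteinase enhancers bind procollagen and speed up its cleavage by BMP1 without being proteases themselves. *Pcolce* (ENSMUSG00000029718, chromosome 5 from 137605103 to 137613784, minus strand), the enhancer of bone and other type I collagen tissues, had 2888 to 9883 counts per library. *Pcolce* had 124, 98.7, 176 and 273 CPM in the WT mice, 233, 216, 157 and 182 CPM in the Jrt;Sost-het mice and 211, 246, 264 and 174 CPM in the Jrt;Sost-ko mice. The groups overlapped, and WT 4 was the highest of all 12 mice. The *Sost* contrast was 0.19 ± 0.157 (-0.17 to 0.54), and Jrt;Sost-ko differed from WT by 0.42 ± 0.303 (-0.27 to 1.11). The gene shares 112 bp of exons (2.93% of its exonic length) with *Fbxo24*, which had 5 to 13 counts, and with the antisense gene Gm36266, which had 102 to 241 counts. The strand setting of the counts is not given in the sources used here.

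*Pcolce2* (ENSMUSG00000015354, chromosome 9 from 95637601 to 95698096, plus strand), the other enhancer, had its lowest mean, unlike *Pcolce*, in Jrt;Sost-ko. *Pcolce2* had 15.1, 5.19, 15.8 and 19.8 CPM in the WT mice, 20.3, 12.7, 13.8 and 16.4 CPM in the Jrt;Sost-het mice and 9.43, 5.00, 11.8 and 5.87 CPM in the Jrt;Sost-ko mice. Every Jrt;Sost-ko mouse was below every Jrt;Sost-het mouse, but WT 2 was as low as the lowest Jrt;Sost-ko mouse, and the other WT mice were in the Jrt;Sost-het range. Mean CPM was 8.02 ± 3.15 in Jrt;Sost-ko against 15.8 ± 3.36 in Jrt;Sost-het (SD, n = 4), a log2 difference of -0.98 ± 0.277 (-1.60 to -0.35), which is 1.97-fold lower.

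Among the 16739 genes tested *Pcolce2* was 81st by p, with an unadjusted p of 0.00655 and an adjusted p of 0.901 (edgeR), so the difference did not pass the test over all genes. The exact two-sided permutation test over the 70 arrangements of the 8 mice gave p = 0.0286, the smallest value that 4 against 4 mice allow and unadjusted for the number of genes. Any gene whose groups do not overlap gets this value, so it restates that separation. DESeq2 gave an adjusted p of 0.136. Leaving out each mouse in turn moved the difference between -1.22 and -0.81. Against WT, Jrt;Sost-ko mice differed by -0.80 ± 0.418 (-1.75 to 0.16) and Jrt;Sost-het mice by 0.18 ± 0.358 (-0.64 to 0.99). The enhancers thus had *Sost* contrasts of opposite sign, and the difference between these contrasts was not tested.

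Markers of several other cell types had lower values in the same group as *Pcolce2*. All 16 skeletal muscle, 6 osteoclast and 6 endothelial genes had a *Sost* contrast below 0 (medians -0.99, -0.07 and -0.13 on the log2 scale), and edgeR called 0 of them. The 8 chondrocyte genes in the matrix were below 0 as well (median -1.81, 0 called by edgeR and 2 at an unadjusted p under 0.05). Their summed CPM ranged from 175 to 879.6 in Jrt;Sost-ko, from 289 to 3649 in Jrt;Sost-het and from 84.6 to 2903 in WT, so the groups overlapped, and none of the 8 genes was at 0 in all mice of a group. Centred on the group means, *Pcolce2* had a Pearson r of 0.76 with the mean of these genes over the 12 mice. The value was not particular to cartilage, since r was 0.78 with the osteoclast, 0.77 with the tendon and periosteum, 0.76 with the endothelial, 0.69 with the muscle and -0.82 with the neutrophil markers. The 3 protein-coding genes closest to it by the same measure, out of 14747, were *Clec3a* (r = 0.964), *Chad* (r = 0.959) and *Colgalt2* (r = 0.941), of which *Chad* encodes the cartilage protein chondroadherin and *Colgalt2* a collagen galactosyltransferase. With the chondrocyte genes as a covariate, an alternative added after seeing the data, the *Sost* contrast of *Pcolce2* was -0.79 (edgeR adjusted p = 0.968). The part of the other cell types in the *Pcolce2* values was not tested.

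**Figure D2:**
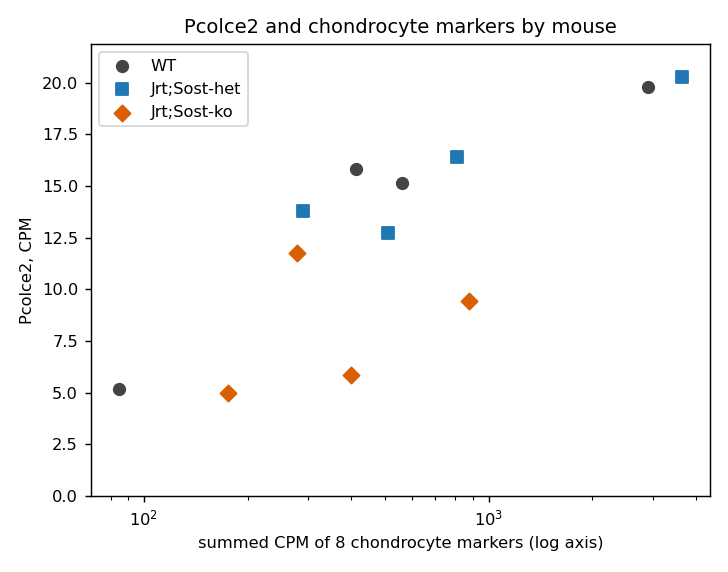
*Pcolce2* (vertical axis, CPM) against the summed CPM of 8 chondrocyte markers (horizontal log axis) in the 12 mice. Jrt;Sost-ko 1, 3 and 4 lie under the WT or Jrt;Sost-het mice nearest to them in marker level. Jrt;Sost-ko 2 has 175 CPM of the markers and 5.00 CPM of *Pcolce2*. The mice of other groups on either side of it are WT 2 and Jrt;Sost-het 3 (289 CPM of the markers, 13.8 CPM of *Pcolce2*). WT 2, at the lower left, has the fewest chondrocyte counts (84.6 CPM) and 5.19 CPM of *Pcolce2*. The part of cartilage in these values was not tested.

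The N-propeptide is removed by 3 related proteases, of which ADAMTS2 is the one whose loss leaves skin fragile. *Adamts2* (ENSMUSG00000036545, chromosome 11 from 50602084 to 50807573, plus strand) varied more in some groups than in others. *Adamts2* had 123, 113, 165 and 202 CPM in the WT mice, 184, 172, 171 and 167 CPM in the Jrt;Sost-het mice and 199, 208, 228 and 163 CPM in the Jrt;Sost-ko mice. Jrt;Sost-ko 1, 2 and 3 were above every Jrt;Sost-het mouse and Jrt;Sost-ko 4 was below them all, which makes the groups overlap. The Jrt;Sost-het mice were close together (SD 7.29 CPM) and the WT mice were not (SD 40.9 CPM). The *Sost* contrast was 0.20 ± 0.0972 (-0.02 to 0.42, unadjusted p = 0.0672, adjusted p = 0.901, edgeR), and Jrt;Sost-ko differed from WT by 0.41 ± 0.194 (-0.04 to 0.85).

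*Adamts3* (ENSMUSG00000043635, chromosome 5 from 89677087 to 89883334, minus strand), which also activates the lymphatic growth factor VEGF-C, was low, with 97 to 224 counts per library. It had 3.72 to 6.20 CPM in WT, 4.01 to 6.20 CPM in Jrt;Sost-het and 3.85 to 5.92 CPM in Jrt;Sost-ko mice. These ranges nearly coincide, and the *Sost* contrast was 0.05 ± 0.193 (-0.39 to 0.48). *Adamts14* (ENSMUSG00000059901, chromosome 10 from 61197112 to 61273438, minus strand) had 12.5 to 27.3, 15.4 to 24.9 and 15.6 to 28.3 CPM in the same order, with a *Sost* contrast of 0.27 ± 0.202 (-0.19 to 0.72). Neither gene passed the test in any comparison, and the smallest edgeR adjusted p over both was 0.901.

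**Figure D3:**
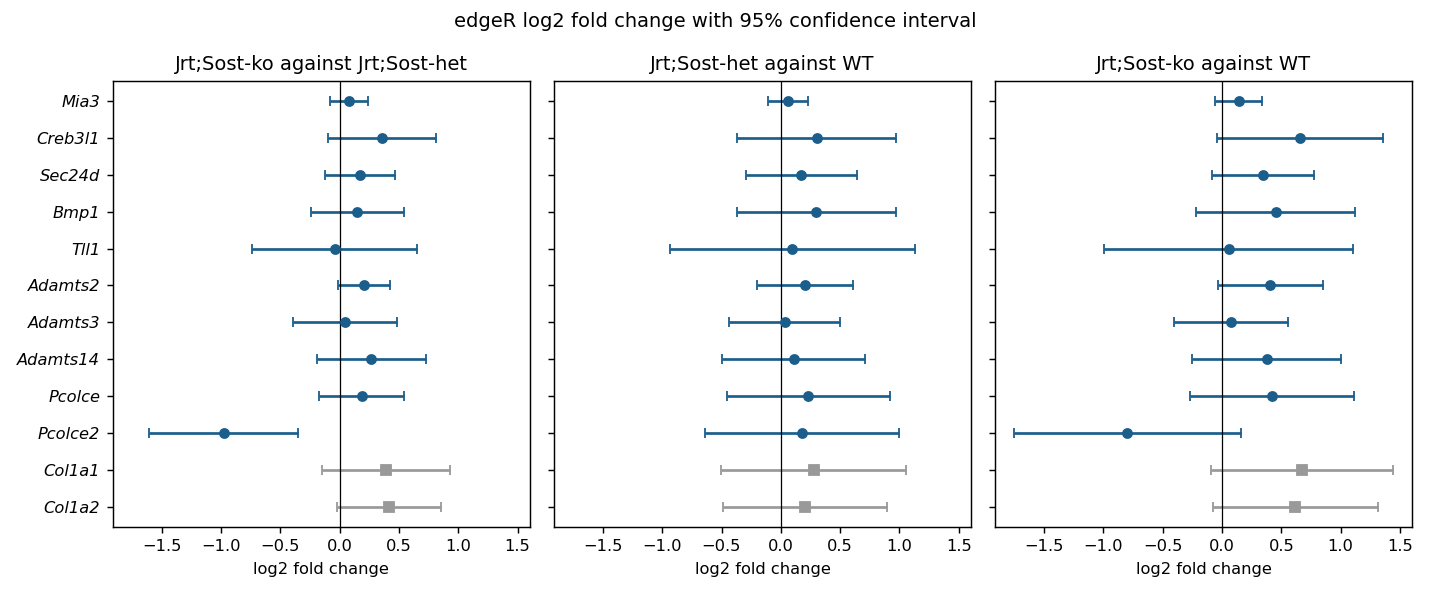
Log2 fold change (horizontal axis) of the 10 genes and of *Col1a1* and *Col1a2* (grey squares) in the 3 comparisons, with the 95% confidence interval of the edgeR fit as bars. Of the members, only *Pcolce2* in the *Sost* contrast (-1.60 to -0.35) has an interval that leaves out 0, and its adjusted p was 0.901.

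Levels of different genes are compared here per length, as CPM per kb of the exons of protein-coding transcripts. In WT mice the order was *Pcolce* (83.5 ± 38.3 CPM per kb, mean ± SD, n = 4), *Bmp1* (37.7 ± 16.3), *Mia3* (25.2 ± 2.12), *Adamts2* (20.8 ± 5.62), *Creb3l1* (15.6 ± 6.67), *Sec24d* (15.1 ± 4.15), *Adamts14* (3.38 ± 1.28), *Pcolce2* (3.15 ± 1.40), *Adamts3* (0.901 ± 0.197) and *Tll1* (0.299 ± 0.183), and it was the same in both Jrt groups. In WT, neighbours from *Bmp1* to *Sec24d* differed by less than the larger SD of the pair, as did *Adamts14* and *Pcolce2*. In Jrt;Sost-ko *Pcolce2* had 1.81 ± 0.710 CPM per kb against 4.37 ± 1.02 for *Adamts14*. *Pcolce* stood far above *Pcolce2* on this scale in every group, and *Adamts2* was the highest of the N-proteinase genes. The place of *Bmp1* depends on the transcript models, since with the exons of all its transcripts it had 15.7 CPM per kb in WT. For scale, *Col1a1* had 2529.9 ± 1118 CPM per kb in WT.

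From mouse to mouse within a group, 8 of the 10 genes followed type I collagen closely, and *Tll1* and *Pcolce2* did so less. WT 4 was the highest WT mouse in 10 of 10 members and WT 2 the lowest in 9, Jrt;Sost-het 1 was the highest of its group in 9, and Jrt;Sost-ko 4 the lowest of its group in 9. *Col1a1* followed the same order at its ends, with 11698, 8934, 15202 and 24175 CPM in WT, 24819.7, 19019.5, 13693 and 15222 CPM in Jrt;Sost-het mice and 21863, 26862, 30052 and 16808 CPM in Jrt;Sost-ko mice. Its *Sost* contrast was 0.39 ± 0.238 and that of *Col1a2* 0.41 ± 0.194, neither past the test (edgeR adjusted p = 0.901 for each).

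Correlations were computed over the 12 mice between each member and the mean log2 CPM of *Col1a1* and *Col1a2*, both centred on their group means, 10 relations in all, with 100000 permutations of mice within groups. *Bmp1* followed type I collagen most closely (Pearson r = 0.988, permutation p = 0.00011, Spearman rho = 1.0, permutation p = 0.00011, unadjusted). *Pcolce* (r = 0.98, rho = 0.99), *Creb3l1* (0.97 and 0.98), *Sec24d* (0.97 and 0.94), *Adamts14* (0.95 and 0.96), *Adamts2* (0.92 and 0.94), *Mia3* (0.86 and 0.92) and *Adamts3* (0.86 and 0.86) came next, with unadjusted permutation p of at most 0.00314 for r and 0.00268 for rho. Without WT 2 and WT 4, the mice farthest from the median of collagen, r in these 8 genes was 0.78 to 0.98.

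*Tll1* and *Pcolce2* were looser. *Tll1* had r = 0.76 and rho = 0.66 (permutation p = 0.0268 and 0.0626), and r was 0.48 without WT 2 and WT 4. *Pcolce2* had r = 0.68 and rho = 0.72 (permutation p = 0.0617 and 0.0245), and r was 0.37 without them, so both relations rest on those mice. Within the groups of 4 mice *Tll1* had r of 0.98 among WT, -0.22 among Jrt;Sost-het and 0.90 among Jrt;Sost-ko mice. The Jrt;Sost-het mice had 30 to 59 counts of *Tll1*, and no r within a group was tested. *Bmp1* had r of 0.999 among WT, 0.97 among Jrt;Sost-het and 0.99 among Jrt;Sost-ko mice, and *Pcolce2* had 0.84, 0.56 and 0.39.

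The points of these relations share a library, and with it the makeup of the shaft. Over the 12 mice the members' r with the mean of the osteoblast markers was 0.66 to 0.98 (median 0.96), with the tendon and periosteum markers 0.75 to 0.95 and with the neutrophil markers -0.90 to -0.62. The 45 pairs of members had r from 0.30 (*Adamts3* with *Pcolce2*) to 0.99 (*Bmp1* with *Pcolce*), with a median of 0.85. The osteoblast markers had a median log2 difference of 0.19 in the *Sost* contrast, beside 0.16 for the members. Against WT their median was 0.19 for Jrt;Sost-het and 0.30 for Jrt;Sost-ko, beside 0.18 and 0.36 for the members. All 6 osteocyte markers, *Dmp1* among them, were higher in the *Sost* contrast (median 0.39). At an unadjusted p under 0.05 edgeR gave 2 osteoblast and 2 osteocyte markers in that contrast, beside 5.02% of all genes, and called 0. DESeq2 called 1 osteoblast and 0 osteocyte markers there, beside 15 of all genes. The part of the shaft's makeup in these correlations and differences was not tested. Many other genes followed the same mice. By the same measure *Bmp1* was closest to *Grb10* (r = 0.997), *Sec24a* (r = 0.995) and *Ppic* (r = 0.992), *Creb3l1* to *Entpd3* (r = 0.997), *Ephb3* (r = 0.988) and *P4ha1* (r = 0.985), *Sec24d* to *Lman1* (r = 0.984), *Srpx2* (r = 0.979) and *Bgn* (r = 0.978) and *Pcolce* to *Tmtc2* (r = 0.991), *P4ha2* (r = 0.991) and *Sparc* (r = 0.989). *Sec24a*, a further COPII cargo subunit, *Lman1*, an ER export receptor, and the prolyl 4-hydroxylase subunits *P4ha1* and *P4ha2* are among these neighbours. *Mia3* was closest to *Pdgfa* (r = 0.969), *Ptprf* (r = 0.964) and *P4ha3* (r = 0.954), *Adamts2* to *Pard6g* (r = 0.989), *Lamb1* (r = 0.985) and *Cep170b* (r = 0.984), *Adamts14* to *Wisp1* (r = 0.989) and *Srgap1* (r = 0.988), *Adamts3* to *Sp6* (r = 0.960), *Mon2* (r = 0.944) and *Slc1a4* (r = 0.935) and *Tll1* to *Samd4* (r = 0.992), *Ptprb* (r = 0.986) and *Hr* (r = 0.978).

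**Figure D4:**
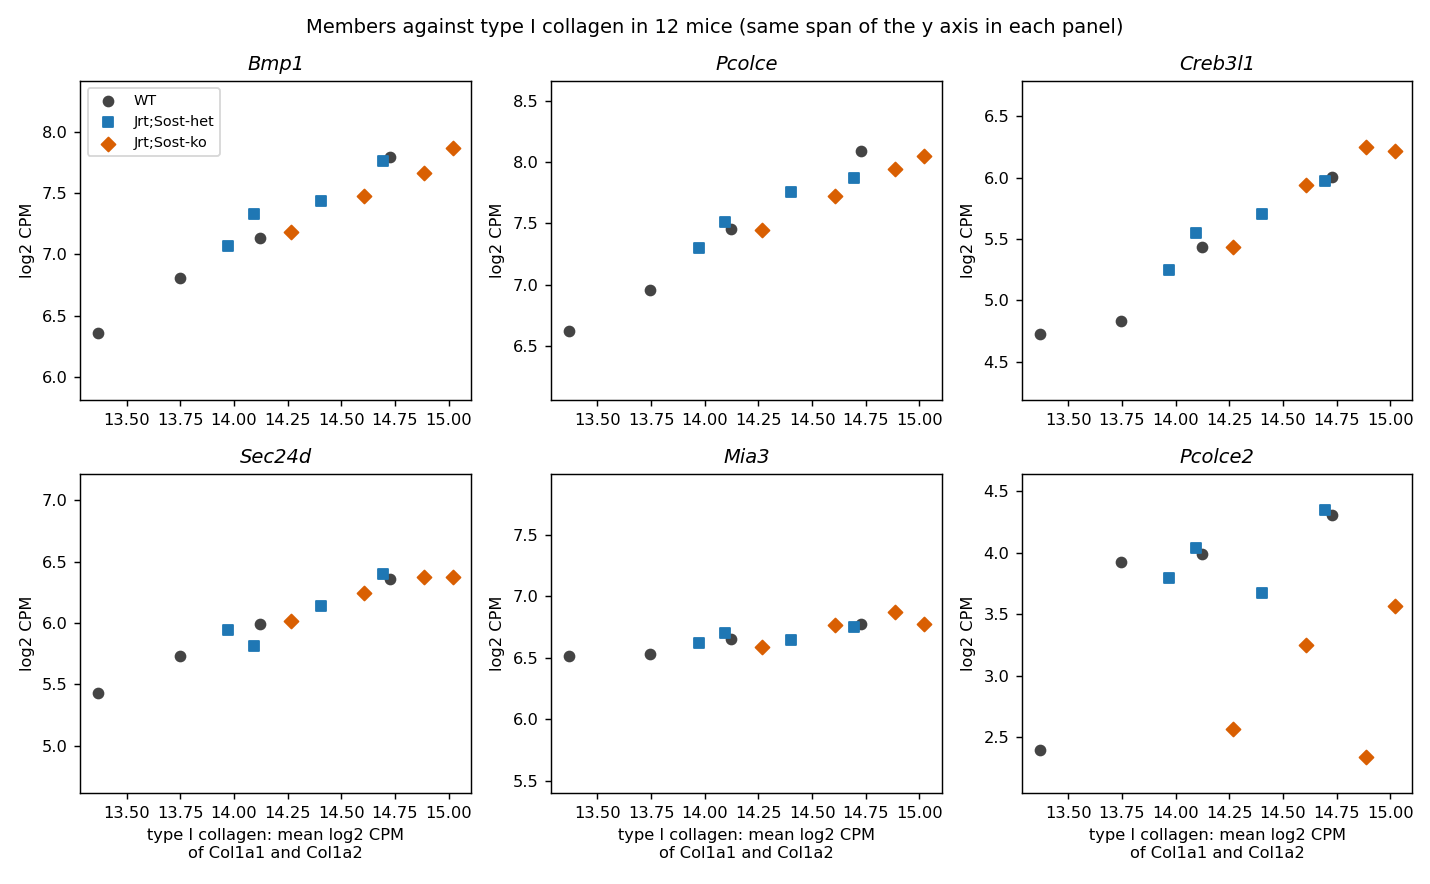
Log2 CPM of 6 of the 10 genes (vertical axes, of the same span) against the mean log2 CPM of *Col1a1* and *Col1a2* (horizontal axes), 1 point per mouse. *Bmp1*, *Pcolce*, *Creb3l1* and *Sec24d* climb with collagen (r = 0.97 to 0.99 after centring on group means), *Mia3* climbs little, and the Jrt;Sost-ko points of *Pcolce2* lie apart below the others but for WT 2.

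Relative to type I collagen, the log2 CPM of each gene minus the mean log2 CPM of *Col1a1* and *Col1a2* in the same mouse, *Bmp1* was -6.93, -6.97, -6.90 and -6.77 in Jrt;Sost-het and -7.13, -7.22, -7.16 and -7.08 in Jrt;Sost-ko mice. *Pcolce2* was -10.35, -10.73, -10.18 and -10.06 in Jrt;Sost-het and -11.36, -12.55, -11.46 and -11.70 in Jrt;Sost-ko mice. On this scale the Jrt;Sost-ko mice were below all Jrt;Sost-het mice in 3 members (*Bmp1*, *Adamts3* and *Pcolce2*), against 4.52% of all genes. The scale itself moved, because the median of all genes in the *Sost* contrast was -0.40. *Bmp1* (-0.25 ± 0.224, limma adjusted p = 0.359) and *Adamts3* (-0.36 ± 0.259, limma adjusted p = 0.320) fell by less than that median.

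The limma test on this scale called 0 members in each comparison, where it called 0.00597%, 0.0% and 0.00583% of all genes in the *Sost* contrast, in Jrt;Sost-het against WT and in Jrt;Sost-ko against WT. At an unadjusted p under 0.05 it gave *Pcolce2* alone in the first, no member in the second and *Adamts3* and *Pcolce2* in the third, beside 12.1%, 0.751% and 29.6% of all genes. *Pcolce2* differed by -1.44 ± 0.290 in the *Sost* contrast (limma adjusted p = 0.160) and passed the threshold without Jrt;Sost-ko 1 (-1.57, limma adjusted p = 0.0189, where 217 of 17004 genes passed) or without Jrt;Sost-ko 3 (-1.54, limma adjusted p = 0.0388, where 24 of 16881 genes passed). *Creb3l1* had -0.06 ± 0.221 in the same contrast, 0.07 ± 0.319 in Jrt;Sost-het against WT and 0.01 ± 0.265 in Jrt;Sost-ko against WT. *Mia3* had -0.33 ± 0.242 and -0.57 ± 0.322 in the *Sost* contrast and in Jrt;Sost-ko against WT, close to the medians of all genes (-0.40 and -0.71).

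The genes around this pathway were counted in the same way, and edgeR and DESeq2 each called 0 of them in each comparison. Of 64 such genes tested in the *Sost* contrast, 4 had an unadjusted p under 0.05 in edgeR and 5 in DESeq2, beside 5.02% and 5.41% of all genes. In Jrt;Sost-het against WT it was 1 of 63 by either tool (2.14% and 2.4% of all genes), and in Jrt;Sost-ko against WT 3 of 64 in edgeR and 7 in DESeq2 (3.89% and 4.62% of all genes). Of 26 COPII coat and export partners 25 were tested in the *Sost* contrast, 18 higher and 7 lower with a median of 0.04, and 2 had an unadjusted p under 0.05. The ends of the list were the coat subunit gene *Sec31b* (-0.81 ± 0.276), the coat GTPase gene *Sar1b* (-0.33 ± 0.290), *Sec24a* (0.15 ± 0.0751) and *Lman1* (0.16 ± 0.0783). All 6 further genes of the CREB3 family and its site proteases were tested, 5 of them higher (median 0.07). They ran from *Creb3* (-0.02 ± 0.0587) and the site 1 protease gene *Mbtps1* (0.00 ± 0.0765) to *Creb3l4* (0.28 ± 0.329) and *Creb3l3* (0.43 ± 0.131, unadjusted p = 0.00974, adjusted p = 0.901, edgeR). Depth limits *Creb3l4*, which had means of only 0.466 CPM in Jrt;Sost-ko and 0.389 CPM in Jrt;Sost-het.

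Of the 11 fibrillar procollagen chains, the substrates, 8 were higher and 3 lower (median 0.14), with the cartilage chain *Col2a1* (-1.72 ± 1.01) and *Col27a1* (-0.38 ± 0.309) lowest and *Col1a2* and *Col1a1* highest. Of 12 other propeptide proteases, activators and inhibitors 10 were tested, 7 higher and 3 lower (median 0.02). *Fn1*, whose product fibronectin binds BMP1 and aids its activity, had the lowest value (-0.64 ± 0.254, unadjusted p = 0.0323, adjusted p = 0.901, edgeR), followed by *Sfrp2* (-0.06 ± 0.411). *A2m* (0.54 ± 0.382) and *Tll2* (0.56 ± 0.346) had the highest. Depth limits *Tll2*, which had means of only 0.582 CPM in Jrt;Sost-ko and 0.397 CPM in Jrt;Sost-het. Of 13 other substrates of the BMP1 and TLL1 proteases 12 were tested, 5 higher and 7 lower (median -0.02), from *Mstn* (-0.95 ± 0.753) and *Col7a1* (-0.53 ± 0.364) to the lysyl oxidase gene *Lox* (0.34 ± 0.190) and the mineral matrix gene *Dmp1* (0.59 ± 0.309). *Mstn* is a muscle gene and *Col2a1* a cartilage gene that is itself among the 8 chondrocyte markers. The muscle and chondrocyte markers had *Sost* contrasts below 0, with medians of -0.99 over 16 genes and -1.81 over those 8. Their part in these values was not tested.

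Against WT the median of the fibrillar chains was 0.30 for Jrt;Sost-het (11 of 11 higher) and 0.45 for Jrt;Sost-ko (9 of 11 higher). The COPII partners had medians of 0.05 and 0.09, the CREB3 family 0.04 and 0.10, the other proteases, activators and inhibitors 0.13 and 0.27, and the other substrates 0.26 and 0.22. *Sfrp2*, whose product binds BMP1, had 1.16 ± 0.309 and 1.10 ± 0.432 (unadjusted p = 0.00505 and 0.0323, edgeR adjusted p = 0.99998 and 0.9996). *Lox* had 0.30 ± 0.279 for Jrt;Sost-het and 0.64 ± 0.284 for Jrt;Sost-ko, and *Dmp1* 0.08 ± 0.465 and 0.67 ± 0.423. *Creb3l3* had 0.21 ± 0.223 and 0.64 ± 0.205 (unadjusted p = 0.371 and 0.0132, edgeR adjusted p = 0.99998 and 0.9996). WT 3 and WT 4 carried the epidermis counts, and without both of them the members' median was 0.61 for Jrt;Sost-het and 0.77 for Jrt;Sost-ko, with 0 members called by edgeR in either. WT 4 alone, the highest WT mouse in every member, moved it to 0.39 and 0.55 when left out. Leaving out WT 2, the lowest WT mouse in 9 members, gave 0.039 (7 of 10 members higher) and 0.22 (8 of 10 higher), and leaving out WT 1 gave 0.12 (8 of 10) and 0.28 (7 of 10). Without Jrt;Sost-het 1 the median for Jrt;Sost-het was 0.10 (8 of 10).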

How the data were processed

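Paired-end reads were aligned to GRCm38 with STAR in GenPipes, and the authors deposited whole-number read counts per Ensembl gene, 1 column per mouse. The counting tool, strand setting and annotation release are not given in the sources used here. The deposited tables of the authors' comparisons, which hold fold changes and p-values, and the per-mouse count files were not used. Of 47069 gene IDs, 46488 (98.8%) matched GENCODE M21, the source of positions and exon lengths.

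Each comparison was fitted on its own 8 mice with edgeR 4.0.16 (filterByExpr, TMM scaling, quasi-likelihood test; R 4.3.3), and a gene was called at a Benjamini–Hochberg adjusted p under 0.05. DESeq2 1.42.0 was an alternative. Values relative to type I collagen were tested with limma 3.58.1 on log2 CPM (prior count 2). Permutation tests used NumPy 2.4.6 (Python 3.11.15), with the ranks for Spearman's rho from SciPy 1.17.1. Each fit was tested on simulated data. The p-values measure the spread between mice, 1 library each, and confidence intervals are at 95%.

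The 10 members, gene lists and motifs were chosen with earlier results of these data known. Named beside them are *Sost*, *Col1a1* and *Col1a2*, in each further list the genes at both ends of the log2 fold changes (2 each) and any called, and for each member the 3 protein-coding genes with the highest r, of which 1 is not reported here. In the comparisons with WT, *Sfrp2*, *Lox*, *Dmp1* and *Creb3l3* were taken up again from the *Sost* contrast. Alternatives were other scalings, no filter, a fit of all 12 mice, muscle or chondrocyte genes as a covariate (the latter added after seeing the data) and leaving out mice.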

Additional observations from a re-analysis of the deposited data

Results flagged for a closer look

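*Tll1* in Jrt;Sost-ko mice drew attention because 1 mouse lay far from the other mice. Jrt;Sost-ko 4 had 0.848 CPM and the other mice of the group 1.68, 1.78 and 1.82 CPM. On the scale of log2 CPM, the gap to the nearest of them was 0.893551 of the group's range, above Dixon's critical value for 4 samples. The 10 genes in 3 groups made 30 such tests, of which chance alone flags about 1 in 20. The gene had 18 to 94 counts per library.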

How the results depend on the processing

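Of 470 recomputed member fold changes, 446 kept their direction and side of the threshold, 24 changed sign (22 of them with 1 mouse left out) and 0 passed the test (smallest adjusted p 0.114, edgeR). The sign changes concerned small differences. With muscle genes as a covariate *Tll1* was 0.22 in the *Sost* contrast, and with chondrocyte genes *Adamts3* was -0.037 in Jrt;Sost-het against WT. Leaving out each mouse in turn, *Tll1* ranged from -0.18 to 0.15 in the *Sost* contrast, from -0.14 to 0.51 in Jrt;Sost-het against WT and from -0.19 to 0.48 in Jrt;Sost-ko against WT, and *Adamts3* from -0.044 to 0.18, -0.10 to 0.18 and -0.028 to 0.23. In Jrt;Sost-het against WT, *Adamts14* ranged from -0.050 to 0.40 and *Pcolce2* from -0.091 to 0.39.

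The number of genes called in the *Sost* contrast was 15 with DESeq2, 0 with muscle genes as a covariate and 0 to 3 with a mouse left out. In Jrt;Sost-ko against WT it was 2 without a filter, 14 with DESeq2 and 0 to 2 with a mouse left out. Without WT 3 and WT 4 the members' median difference from WT was 0.61 for Jrt;Sost-het and 0.77 for Jrt;Sost-ko. Relative to type I collagen, 0 to 1 members were called in the *Sost* contrast with a mouse left out and 0 to 3 in Jrt;Sost-ko against WT. The 3 were *Mia3* (-0.77, limma adjusted p = 0.0219), *Adamts3* (-0.74, limma adjusted p = 0.0256) and *Pcolce2* (-1.46, limma adjusted p = 0.0146) without WT 4, where 13548 of 17317 genes were called. For each of these the cause was not tested. No paired analysis was possible because the labels give no litter, cage or replicate number that pairs mice across groups. Depth limits *Tll1* (18 to 94 counts per library) and *Adamts3* (97 to 224), and 4 mice per group limit every comparison.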
